A study of Homo sapiens with 148 samples.

Results

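The genes described here are 46 members of the cell cycle machinery, chosen by name from the 49085 gene names of the RNA-seq table and followed over 6 stages of pancreatic differentiation. By role, 19 act in S phase, 25 act in G2 and mitosis and 2, CDKN1A and CDKN1B, are inhibitors of cyclin-dependent kinases. All 46 names were found, each with a single entry. The stages were undifferentiated H9 hESCs, an established wild-type human embryonic stem cell line, and cells derived from it in suspension spheroids under the pancreatic differentiation treatment: definitive endoderm (DE, day 4), primitive gut tube (PGT, day 7), pancreatic progenitors (PP, day 14) and SC-β organoids (day 35). A further stage, named PH, carries the same cell line, genotype and treatment labels, and neither the labels nor the text of the study define it or give its day. On the way to SC-β organoids the spheroids received Activin A and CHIR99021 first, then KGF, then Sant1, retinoic acid, LDN193189 and PdBU, and from day 14 the gamma-secretase inhibitor XXI, Betacellulin, Alk5i II and T3, with Y27632 at several steps. Every stage therefore came from the same line, and the agents given to PH are not stated.

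The cell cycle duplicates the genome in S phase and divides it in mitosis. Licensing factors load the MCM helicase onto origins in G1, cyclin E with its kinase opens S phase, and E2F transcription factors switch on the genes of DNA synthesis. Genes of G2 and mitosis are switched on later, by B-MYB and FOXM1 together with the MuvB complex, which binds a promoter element called the CHR. hESCs are known for a short G1 phase and high cyclin E, and progenitors of the gut and pancreas divide as they expand, whereas most mature islet cells have left the cycle.

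The promoters of the members carried different letters in the S-phase and mitotic classes. RefSeq promoters on GRCh38.p14, from 250 bases before to 50 bases after each annotated start, were found for 37 of the 46 members, and for none of AURKA, BIRC5, CCNE2, FOXM1, MCM4, MCM5, TPX2, TTK or UBE2C. Exact matches were sought on both strands to TTTGAA (the CHR), CCAAT, and TTTCCCGC or TTTGGCGC (E2F), and a member was counted where any of its promoters held one. A CHR match was present in 13 of 19 mitotic members and in 1 of 16 S-phase members, RRM1, against 15.2% of all 35116 promoters and 18.2% of all 27305 genes. An E2F match was present in 10 of 16 S-phase members and in 2 of 19 mitotic members, CENPA and NUSAP1, against 2.27% of all promoters and 2.75% of all genes. CCAAT was found in 17 of 19 mitotic and 11 of 16 S-phase members, against 34.6% of all promoters and 39.7% of all genes. CHR and CCAAT occurred together in 12 of 19 mitotic members, in 1 of 16 S-phase members and in 5.90% of all promoters. Neither inhibitor had a CHR or an E2F match. A match describes the letters of the window only. The 3 mitotic promoters below are shown for their CHR and CCAAT letters, and the 3 S-phase promoters for their E2F letters. Each is the stretch of 160 bases that ends at the base before the start site, written 5′ to 3′ on the strand of the gene, with every match to any of these motifs in capitals. Their positions are chr15:59104986-59105145 (plus strand) for CCNB2, chr16:23678729-23678888 (plus) for PLK1, chr10:128126424-128126583 (minus) for MKI67, chr2:135876444-135876603 (minus) for MCM6, chr3:48188418-48188577 (minus) for CDC25A and chr20:33686386-33686545 (minus) for E2F1.
CCNB2: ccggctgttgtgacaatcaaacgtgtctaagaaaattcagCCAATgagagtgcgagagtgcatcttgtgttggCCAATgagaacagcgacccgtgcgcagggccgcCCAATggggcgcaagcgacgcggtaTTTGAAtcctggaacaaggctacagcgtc
PLK1: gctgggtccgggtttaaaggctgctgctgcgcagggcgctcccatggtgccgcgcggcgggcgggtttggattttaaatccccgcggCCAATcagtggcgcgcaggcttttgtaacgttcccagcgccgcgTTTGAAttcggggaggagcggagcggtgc
MKI67: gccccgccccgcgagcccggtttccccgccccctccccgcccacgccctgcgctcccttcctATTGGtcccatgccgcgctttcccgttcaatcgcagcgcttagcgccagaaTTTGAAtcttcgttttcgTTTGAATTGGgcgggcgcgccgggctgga
MCM6: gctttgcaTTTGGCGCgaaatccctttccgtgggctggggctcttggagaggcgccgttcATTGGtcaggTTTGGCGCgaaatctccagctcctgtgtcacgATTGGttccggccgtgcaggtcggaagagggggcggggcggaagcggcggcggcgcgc
CDC25A: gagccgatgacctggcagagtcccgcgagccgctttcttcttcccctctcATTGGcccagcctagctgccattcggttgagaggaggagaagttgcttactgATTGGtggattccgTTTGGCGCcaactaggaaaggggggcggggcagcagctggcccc
E2F1: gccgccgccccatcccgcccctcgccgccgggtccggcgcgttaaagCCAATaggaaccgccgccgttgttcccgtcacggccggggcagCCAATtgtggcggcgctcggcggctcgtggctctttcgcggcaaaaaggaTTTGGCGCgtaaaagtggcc

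In CCNB2, which encodes a B-type mitotic cyclin, CCAAT began 120, 87 and 54 bases before the start site and the CHR 29 bases before it. PLK1, a kinase of mitotic entry, had its CHR at the same distance of 29 bases, with CCAAT 73 bases before the start. MKI67, the gene of the Ki-67 proliferation antigen, had CHR matches 47 and 29 bases before the start, and the nearer of them overlapped a reverse-strand CCAAT, the single overlapping pair of matches among the members' promoters. MCM6, a helicase subunit, had E2F matches 152 and 90 bases before the start, CDC25A 44 bases and E2F1 20 bases before it.

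**Figure D1:**
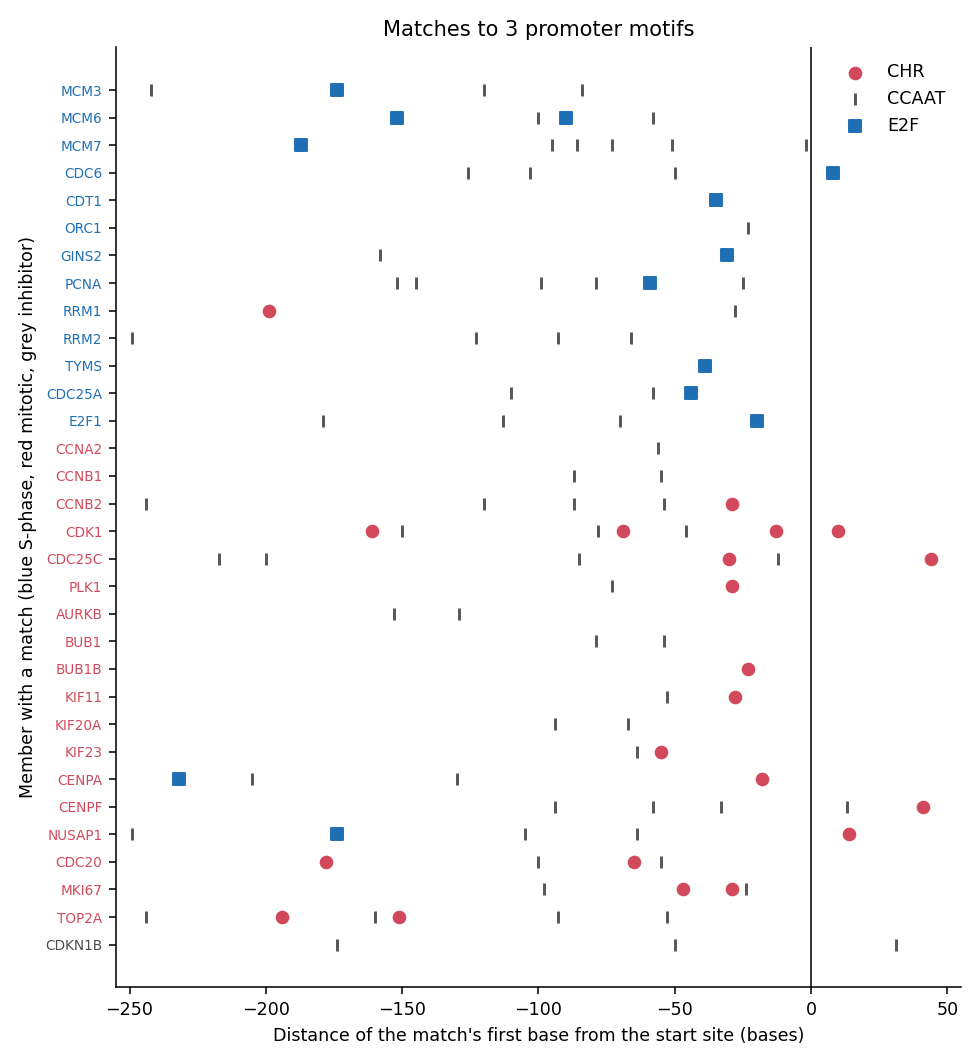
Matches to the CHR (red circles), CCAAT (grey ticks) and E2F (blue squares) motifs in the RefSeq promoters of the members with at least 1 match, plotted by the distance of the match's first base from the annotated start site. Members with several promoters have all of them on 1 line, and the CHR circles lie almost wholly in the mitotic rows, in 13 of 19 mitotic members and 1 of 16 S-phase members.

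The deposited table gives a single value per gene and stage, the authors' mean TPM (RNA abundance corrected for transcript length and scaled to a fixed total in every sample) over the 2 replicates that the labels list per stage. There is thus no spread between replicates, no error and no test for any value below, and TPM does not keep the number of reads behind a value. Ratios are given as log2 after adding 1 TPM to both values, and a member was counted from 2-fold on that scale. Shares of "all names" refer to the 28202 names at 1 TPM or more in at least 1 stage. Comparisons with hESCs share the hESC value, so they are given side by side. The number of names at 1 TPM or more ran from 16784 in hESCs to 24571 in SC-β organoids, and the share of the total TPM held by a few structural RNAs from 31.8% in DE to 50.9% in PH. Against hESCs the median log2 ratio of all names was 0.44 in DE, 0.29 in PGT, 0.24 in PP, 0.15 in PH and 0.73 in SC-β organoids, and these medians stand beside those of the members. The marker genes of hESCs, DE, PGT and the endocrine pancreas were highest, summed, in the stages that carry their names, as were those of PP. Summed neural progenitor markers were 297 TPM in PH against 60.7 TPM in PP, and mesenchymal markers 467 TPM against 37.3 TPM. In SC-β organoids these sums were 133 and 1011 TPM, and in hESCs 132 and 14.1 TPM.

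The members were at their highest in hESCs and at their lowest in PGT and PH. Of the 46, 24 had their highest value in hESCs, 11 in SC-β organoids, 5 each in DE and PP, 1 in PH and none in PGT. The lowest value fell in PH for 27, in PGT for 15, in hESCs for 2, and in DE and PP for 1 each. The summed TPM of the S-phase genes was 1744 in hESCs, 1450 in DE and 914 in PGT, then 1261 in PP, 502 in PH and 1179 in SC-β organoids. For the mitotic genes it was 1933, 1397, 721, 1607, 771 and 1645 TPM in the same order. Both classes were thus low in PGT and PH, with higher values in PP and in SC-β organoids. In bulk samples, fewer dividing cells and less RNA per dividing cell cannot be told apart.

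**Figure D2:**
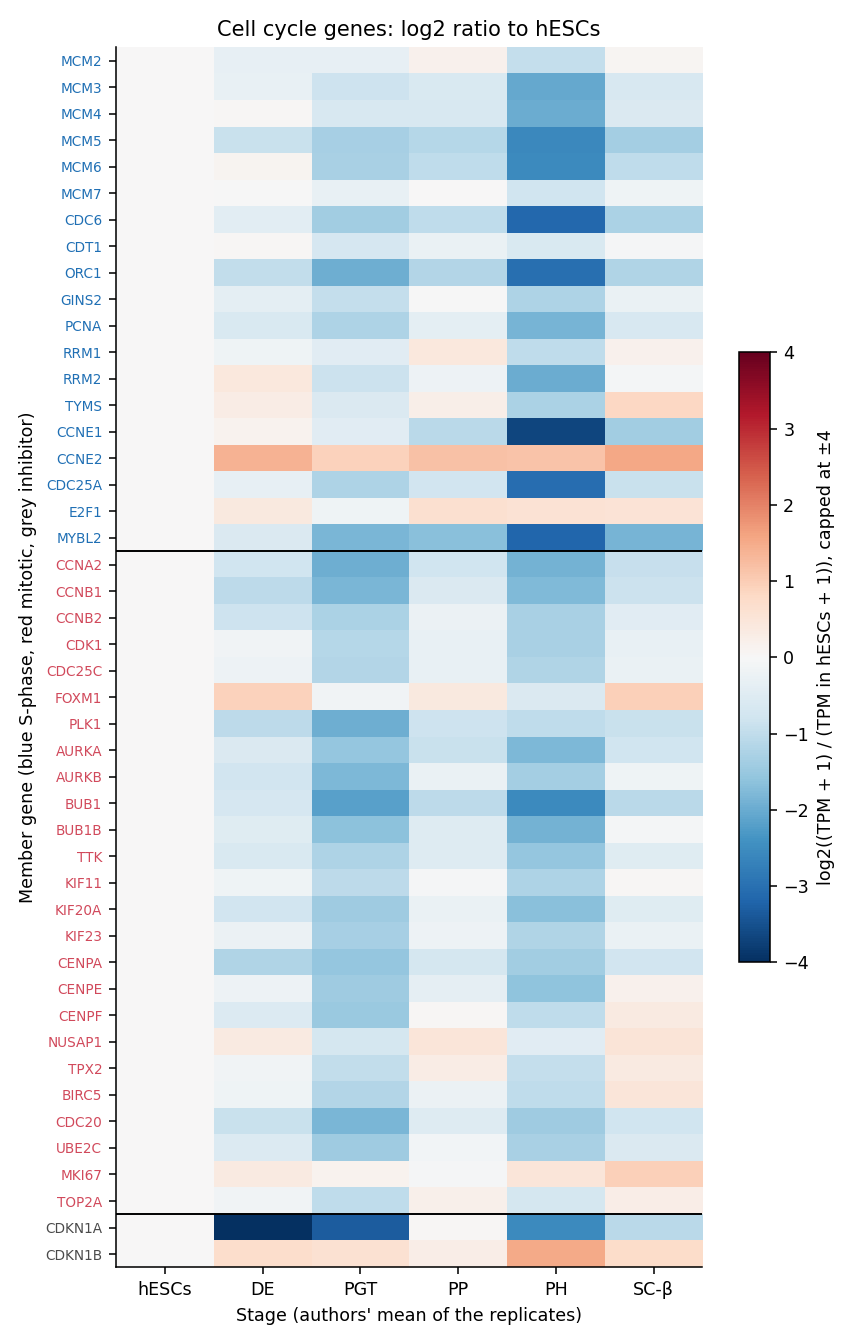
Colours give the log2 ratio of each of the 46 members to hESCs (pseudocount 1 TPM, capped at 4 in either direction, which affects CDKN1A in DE at -4.57) at the 6 stages, with S-phase genes at the top, mitotic genes below and the inhibitors at the bottom. PGT and PH are the bluest columns: 43 of 46 members were below hESCs in PGT and 42 of 46 in PH.

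The pattern of the low stages, picked after the values above were seen, was counted directly. In 41 of 46 members the value in PGT was below both DE and PP, where 30.5% of all names had this order. Of the mitotic genes, 24 of 25 had it, all but MKI67, and of the S-phase genes 17 of 19, all but MCM2 and CCNE1. In 43 of 46 members the value in PH was below both PP and SC-β organoids, against 52.7% of all names. The members outside this order were MKI67, E2F1 and CDKN1B. When the stages were rescaled by their median ratios, or the structural and mitochondrial RNAs were left out, the first count stayed at 41 and the second was 41, without CCNE2 and PLK1 as well.

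The licensing and replication fork genes were led by PCNA, the sliding clamp of the DNA polymerases (chr20:5114953-5126626). PCNA measured 289 TPM in hESCs, 188 in DE and 121 in PGT, then 222 in PP, 79.0 in PH and 183 in SC-β organoids. It was the most abundant member in hESCs, DE, PP and SC-β organoids, on the per-length TPM scale. In PGT this was MCM7, and in PH MCM7 and TOP2A were both at 88.6 TPM. The 6 subunits of the MCM helicase summed to 853 TPM in hESCs, 720.0 in DE and 498 in PGT, then 599 in PP, 258 in PH and 559 in SC-β organoids.

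The subunits act together as a ring, and their RNAs did not keep a fixed ratio over the stages. MCM2 was 97.2 TPM in hESCs, 76.6 in both DE and PGT, 109.8 in PP, 49.5 in PH and 102 in SC-β organoids. MCM7 was 155 TPM in hESCs, 155 in DE and 125 in PGT, then 158 in PP, 88.6 in PH and 136 in SC-β organoids. Both subunits were within 2-fold of hESCs in every stage. The log2 ratios in PGT were -0.34 for MCM2 and -0.31 for MCM7, and in PH -0.96 and -0.80. MCM3 was 162, 133, 90.5, 105, 38.1 and 103 TPM in the same order of stages. MCM4 was 126, 129.8, 81.0, 81.0, 31.0 and 84.8 TPM. Both were lower from PGT onward. MCM5 was 204 TPM in hESCs and already 109.9 in DE, then 81.1, 91.6, 33.7 and 79.7. MCM6 was 108 TPM in hESCs, 116 in DE and 43.7 in PGT, then 52.7 in PP, 17.5 in PH and 53.5 in SC-β organoids. MCM5 and MCM6 were the 2 subunits at least 2-fold below hESCs in both PP and SC-β organoids, and MCM2 and MCM7 the 2 closest to it. MCM7 shares its locus with AP4M1 on the other strand, which stood at 9.24 to 17.8 TPM.

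Origin loading factors differed more widely. CDC6, an ATPase that loads the helicase, was 55.1 TPM in hESCs, 41.2 in DE and 20.3 in PGT, then 27.0 in PP, 5.39 in PH and 22.5 in SC-β organoids. ORC1, the largest subunit of the origin recognition complex, was 51.3, 25.7, 12.6, 22.3, 5.53 and 21.7 TPM. CDT1, the partner of CDC6 in loading, ranged only from 9.68 TPM in PGT to 16.6 TPM in DE and had the smallest range of the S-phase class, 0.72 on the log2 scale. So among factors of 1 loading reaction, the log2 ratio of PH to hESCs was -3.13 for CDC6 and -3.00 for ORC1, while CDT1 was at 10.2 against 16.1 TPM. GINS2, a subunit of the active helicase, lay between 14.2 TPM in PH and 35.1 TPM in hESCs, and its locus overlaps GSE1 on the other strand.

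Nucleotide supply genes were held in PP and SC-β organoids. RRM1, the large subunit of ribonucleotide reductase, was 75.0 TPM in hESCs, 66.8 in DE and 54.6 in PGT, then 101 in PP, 36.3 in PH and 84.0 in SC-β organoids. RRM2, its small subunit, was 71.2, 95.9, 38.4, 61.3, 17.2 and 66.9 TPM. TYMS, which makes thymidylate, was 45.5, 56.7, 30.5, 53.9, 18.2 and 80.8 TPM, the last its highest. All 3 were at least 2-fold below PP in PH, and in SC-β organoids none was 2-fold from hESCs. TYMS overlaps ENOSF1 on the other strand, and ENOSF1 was 46.9 TPM in SC-β organoids.

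The G1/S drivers held the widest differences of the S-phase class. CCNE1, one of the E cyclins that open S phase (chr19:29811991-29824312), was 40.8 TPM in hESCs, 45.1 in DE and 29.5 in PGT, then 18.9 in PP, 2.25 in PH and 15.1 in SC-β organoids. CCNE2, the other E cyclin, was 2.71, 8.77, 6.05, 7.37, 7.22 and 9.83 TPM. CCNE1 was above CCNE2 in every stage but PH, where the order was turned. CCNE2 made up 6.23% of the summed cyclin E TPM in hESCs, 16.3% in DE and 17.0% in PGT, then 28.0% in PP, 76.3% in PH and 39.4% in SC-β organoids. The locus of CCNE2 overlaps INTS8 on the other strand, which was at 43.3 to 59.7 TPM, and the share of CCNE2 reads that could belong to INTS8 was not tested.

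CDC25A, the phosphatase that activates cyclin E kinase, was 47.4 TPM in hESCs, 37.7 in DE and 19.7 in PGT, then 27.5 in PP, 4.81 in PH and 24.9 in SC-β organoids. MYBL2, which encodes B-MYB, was 144, 96.5, 39.6, 44.0, 15.0 and 38.6 TPM, and was the member of the S-phase class with the lowest ratio to hESCs in PP and in SC-β organoids (log2 -1.69 and -1.87). E2F1, a transcription factor of S-phase genes, was 18.9, 25.1, 16.8, 29.8, 28.5 and 28.0 TPM. E2F1 in PH was thus above hESCs, while the MCM sum there was 258 against 853 TPM.

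**Figure D3:**
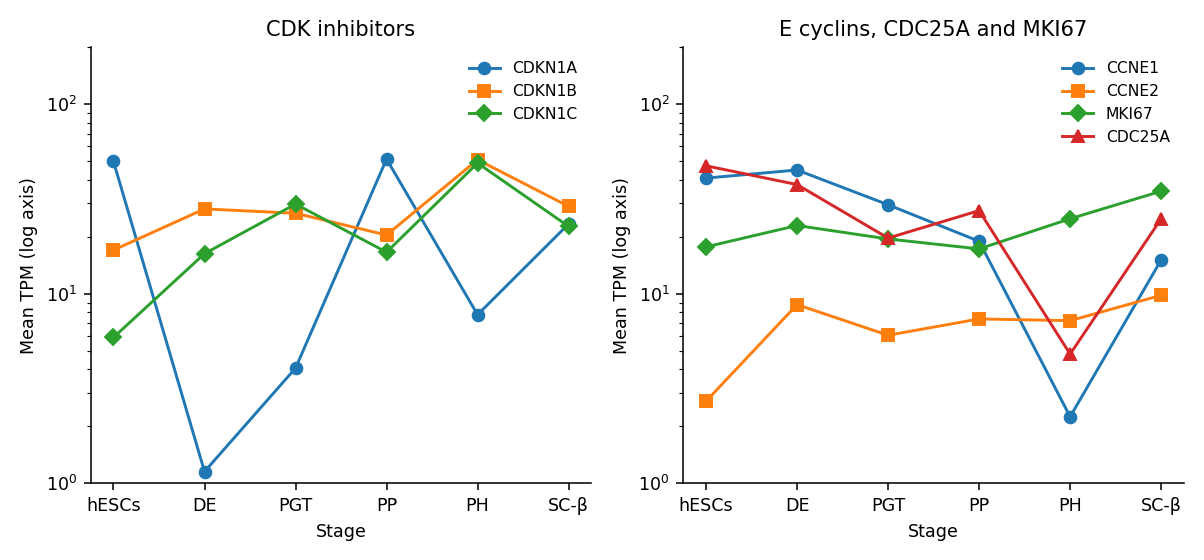
Mean TPM on a log axis for the inhibitors CDKN1A, CDKN1B and CDKN1C (left) and for CCNE1, CCNE2, CDC25A and MKI67 (right) at the 6 stages, 1 point per stage and no error, since the table holds means only. CDKN1A is at 1.15 TPM in DE between 50.0 TPM in hESCs and 51.4 TPM in PP, and CCNE1 crosses below CCNE2 in PH.

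Among the cyclins and their kinase, CCNB1, the main mitotic cyclin (chr5:69167135-69178245), was 182 TPM in hESCs, 88.4 in DE and 50.8 in PGT, then 122 in PP, 52.6 in PH and 99.4 in SC-β organoids. CCNA2, the cyclin of S and G2 phases, was 104, 59.9, 26.3, 60.1, 27.1 and 55.0 TPM. CDK1, their catalytic partner, was 98.0, 88.0, 43.6, 79.5, 39.4 and 79.8 TPM. The cyclins were lower in DE by a wider margin than their kinase: the log2 ratio of DE to hESCs was -1.03 for CCNB1 and -0.15 for CDK1. CDC25C, the phosphatase that activates CDK1, had one of the smallest ranges of its class, from 9.84 TPM in PH to 23.9 TPM in hESCs. CCNB2 ranged from 30.9 TPM in PH to 78.2 TPM in hESCs. FOXM1, a transcription factor of mitotic genes, differed from MYBL2 in its order of stages and was 19.7 TPM in hESCs, 37.8 in DE and 17.6 in PGT, then 26.1 in PP, 12.9 in PH and 39.2 in SC-β organoids. Its locus overlaps ITFG2, and that of CCNA2 overlaps EXOSC9, on the other strand. CDC25C overlaps FAM53C on the other strand, which was at 25.6 to 45.4 TPM and above CDC25C in every stage.

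All 6 mitotic kinases were highest in hESCs. BUB1, a kinase of the spindle checkpoint, was 139 TPM in hESCs, 87.3 in DE and 29.7 in PGT, then 65.9 in PP, 23.0 in PH and 64.8 in SC-β organoids, the largest range of the mitotic class (2.54 on the log2 scale). PLK1 was 38.6, 18.3, 9.24, 21.2, 18.6 and 20.3 TPM, and its log2 ratio was -0.18 in PH against PP. AURKA, AURKB, BUB1B and TTK, which act at the centrosome, the centromere and the checkpoint, ranged from 12.7 to 46.2, 20.8 to 75.5, 20.4 to 77.5 and 18.5 to 56.6 TPM.

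Of the kinesins and the centromere and spindle proteins, several were above their hESC value in SC-β organoids on the TPM scale as deposited. CENPF, a kinetochore protein, was 105 TPM in hESCs, 71.1 in DE and 36.9 in PGT, then 109 in PP, 51.5 in PH and 136 in SC-β organoids. NUSAP1, which bundles spindle microtubules, had one of the smallest ranges, from 41.7 TPM in PGT to 98.8 TPM in SC-β organoids, and TPX2, an activator of AURKA, lay between 47.0 and 121 TPM with the same lowest and highest stages. The motors KIF11, KIF20A and KIF23 were 20.0 to 49.6, 23.8 to 78.4 and 22.7 to 58.8 TPM. CENPA, the centromeric histone, was 8.47 to 26.9 TPM, CENPE 16.2 to 58.1 TPM and BIRC5, the survivin subunit of the Aurora B complex, 11.3 to 37.8 TPM. Of these 9 genes, 6 were above hESCs in SC-β organoids, none of them 2-fold, and after median-ratio rescaling NUSAP1 alone was. KIF20A overlaps BRD8 and CDC23 and NUSAP1 overlaps OIP5 on the other strand. On the same strand CENPA overlaps SLC35F6, and NUSAP1 overlaps OIP5-AS1, at 51.2 TPM for hESCs and 51.0 for SC-β organoids. BUB1B overlaps PAK6 on the same strand, and BRD8 was above KIF20A in every stage but hESCs.

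The markers most used to score dividing cells did not move together. TOP2A, the topoisomerase that untangles chromosomes, was 146 TPM in hESCs, 132 in DE and 71.8 in PGT, then 167 in PP, 88.6 in PH and 177 in SC-β organoids. CDC20 and UBE2C, which act with the anaphase-promoting complex, were 33.3 to 122 and 55.7 to 150.1 TPM, both lowest in PGT and highest in hESCs. MKI67 (chr10:128096659-128126423) was 17.7 TPM in hESCs, 22.9 in DE and 19.5 in PGT, then 17.3 in PP, 24.9 in PH and 34.8 in SC-β organoids. MKI67 had the smallest range of the mitotic class, 0.97 on the log2 scale, and was the single mitotic gene above PP in PH (log2 0.50), joined by PLK1 after median-ratio rescaling or without structural and mitochondrial RNAs. Its ratio to hESCs in DE and PGT, 0.36 and 0.13, was below 0 after median-ratio rescaling (-0.10 and -0.19).

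Setting the classes against each other, the summed TPM of the mitotic genes was 1.11 times that of the S-phase genes in hESCs, 0.963 times in DE, 0.788 in PGT, 1.27 in PP, 1.54 in PH and 1.39 in SC-β organoids. The ratio was thus under 1 in DE and PGT and over 1 elsewhere, with its highest value in PH. In DE against hESCs the median log2 ratio was -0.16 for S-phase and -0.54 for mitotic genes, against 0.44 for all names. A 2-fold lower value was found in 4 of 46 members, CCNB1, PLK1, CENPA and CDKN1A, where 4.43% of all names were 2-fold lower, and a higher one in CCNE2 alone, against 22.5% of all names. After median-ratio rescaling, 18 members were 2-fold lower in DE and 1 higher.

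In PGT against DE the medians were -0.62 for S-phase and -0.95 for mitotic genes, against -0.14 for all names. A 2-fold lower value was found in 12 of 46 members, 9 of them mitotic, against 8.56% of all names, and a higher one in CDKN1A, against 4% of all names. The lower count was 7 after median-ratio rescaling. The 3 S-phase genes were MCM6, RRM2 and MYBL2, and 22 of the 25 mitotic genes were below the S-phase median. Relative to hESCs, 29 of 46 members were 2-fold lower in PGT (21 mitotic and 7 S-phase, with CDKN1A), against 7.56% of all names, and none was higher, against 17.6%. The medians were -0.83 and -1.41 for S-phase and mitotic genes, against 0.29 for all names.

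From PGT to PP the mitotic genes differed by more than the S-phase genes. Their median log2 ratio was 1.12, against 0.40 for the S-phase genes and -0.06 for all names. A 2-fold higher value in PP was found in 18 of 46 members, 17 of 25 mitotic genes and CDKN1A but none of the 19 S-phase genes, against 4.77% of all names, and no member was 2-fold lower, against 5.65%. All 19 S-phase genes were below the mitotic median, and 1 of 25 mitotic genes, MKI67, was below the S-phase median. In PP against hESCs the classes were close, with medians of -0.38 and -0.27, against 0.24 for all names. The 7 members 2-fold lower in PP than in hESCs were MCM5, MCM6, CDC6, ORC1, CCNE1, MYBL2 and the mitotic BUB1, against 7.07% of all names, and CCNE2 was 2-fold higher, against 13.9%. After rescaling 11 were lower and none higher.

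**Figure D4:**
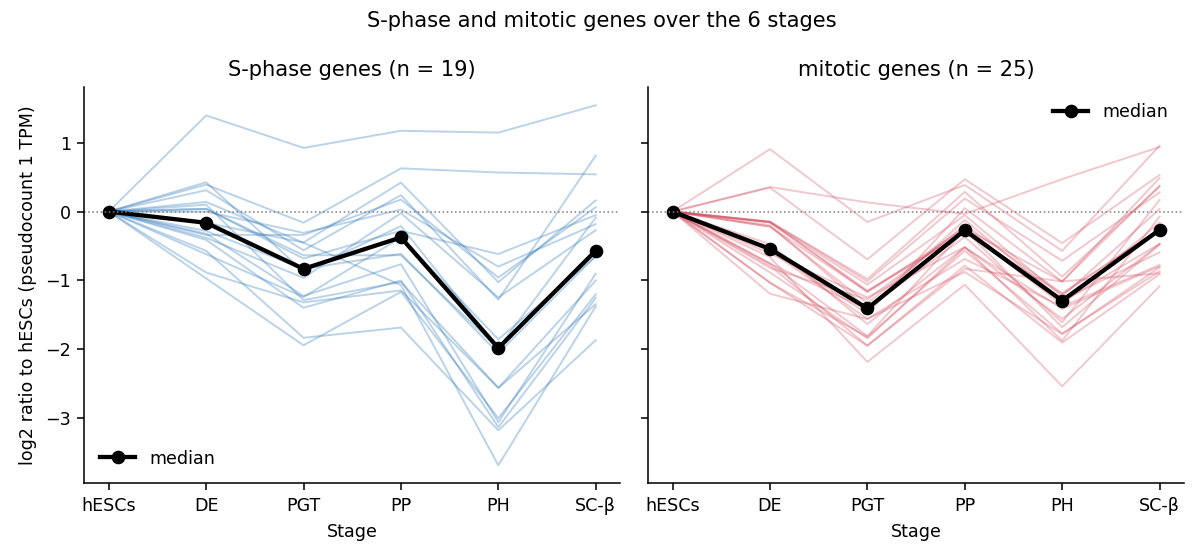
Log2 ratio to hESCs over the 6 stages for each S-phase gene (left, n = 19 genes) and each mitotic gene (right, n = 25 genes), with the class median in black. The mitotic median is lower in PGT (-1.41) than in PH (-1.29), and the S-phase median is lower in PH (-1.98) than in PGT (-0.83).

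In PH the order of the classes was the other way round. Against PP the median log2 ratio was -1.45 for S-phase and -1.04 for mitotic genes, against -0.09 for all names. A 2-fold lower value in PH was found in 29 of 46 members, 15 of 19 S-phase and 13 of 25 mitotic genes and CDKN1A, against 9.97% of all names, and CDKN1B alone was 2-fold higher, against 8.94%. After median-ratio rescaling the lower count was 20, and the medians were -1.23 for S-phase and -0.83 for mitotic genes. The lowest ratios to PP were those of CCNE1 (log2 -2.62), CDKN1A (-2.58), CDC25A (-2.29) and CDC6 (-2.13), and 1 of 25 mitotic genes, BUB1, lay below the S-phase median. Relative to hESCs, 35 of 46 members were 2-fold lower in PH, against 14.5% of all names, and CCNE2 and CDKN1B were higher, against 21% of all names. The lowest stage was PH for 16 of 19 S-phase genes, but for 11 of 25 mitotic genes, with PGT lowest for 13. Neural progenitor and mesenchymal markers differed as well: all 5 and all 6 were at 1 TPM or more in PH and each was 2-fold above PP. This was not particular to PH, since 3 of the 5 and all 6 were 2-fold above PP in SC-β organoids too. Structural RNAs held 50.9% of the TPM in PH against 42.2% in PP. Without structural and mitochondrial RNAs, 20 of 46 members were 2-fold lower in PH than in PP, and 28 than in hESCs. The medians against PP were then -1.25 for S-phase and -0.85 for mitotic genes. Beyond these counts and medians, the part of the structural RNAs or of the markers in the low values of the members was not tested.

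**Figure D5:**
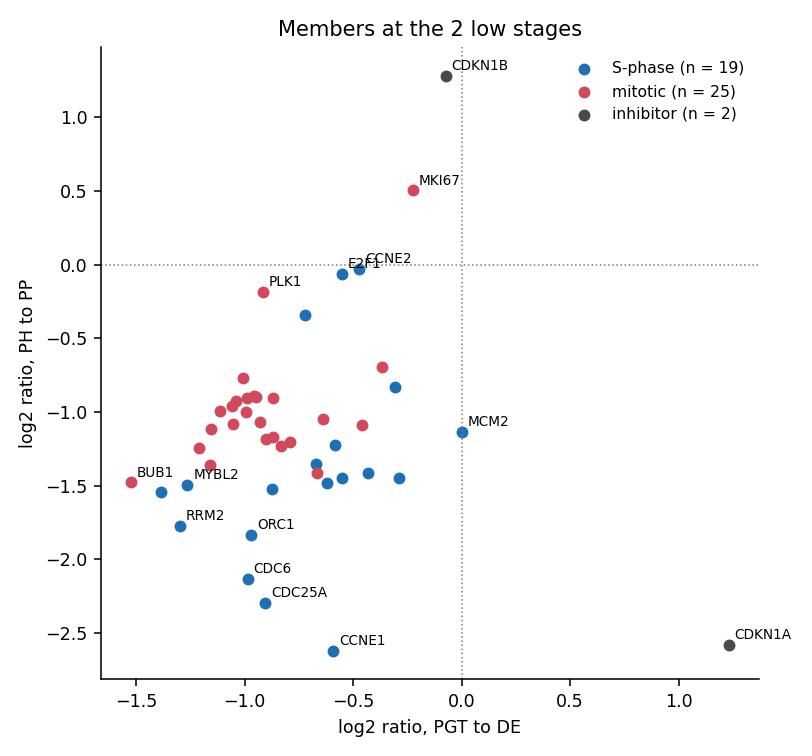
Each point is 1 member, placed by its log2 ratio of PGT to DE (horizontal) and of PH to PP (vertical), coloured by class. The mitotic genes gather near -1 on both axes, whereas the S-phase genes reach lower on the vertical axis, to -2.62 for CCNE1, and MKI67 and CDKN1B are the 2 members above 0 in PH against PP, joined by CCNE2, E2F1 and PLK1 after median-ratio rescaling.

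SC-β organoids kept the cell cycle genes near the PP level. Against PP the median log2 ratio was -0.11 for S-phase genes and 0.04 for mitotic genes, against 0.39 for all names. After median-ratio rescaling the S-phase and mitotic medians were -0.38 and -0.22, and without structural and mitochondrial RNAs -0.29 and -0.14. Members below PP were 24 of 46 as deposited and 37 after median-ratio rescaling. A 2-fold lower value was found in CDKN1A alone, against 1.63% of all names, and a higher one in none of the 46, against 18.5%. Against hESCs, 8 of 46 members were 2-fold lower, MCM5, MCM6, CDC6, ORC1, CCNE1, MYBL2, BUB1 and CDKN1A, where 6.44% of all names were, and CCNE2 was 2-fold higher, where 38.6% were. After rescaling 19 members were 2-fold lower than in hESCs. The organoids were measured as a whole, with endocrine markers at 3919 TPM beside mesenchymal markers at 1011 TPM and hepatic markers at 1338 TPM, and which of their cells held the cell cycle RNAs cannot be told apart.

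The inhibitors differed from each other in their order of stages. CDKN1A, which encodes p21 (chr6:36676460-36687337), was 50.0 TPM in hESCs, 1.15 in DE and 4.06 in PGT, then 51.4 in PP, 7.76 in PH and 23.4 in SC-β organoids. It was the widest-ranging member, with a log2 ratio of -4.57 in DE against hESCs and 3.37 in PP against PGT. It was high in hESCs and PP and low in DE, PGT and PH. Its low value in DE stood beside S-phase and mitotic sums of 1450 and 1397 TPM, and its value in PP beside sums of 1261 and 1607 TPM. CDKN1B, which encodes p27 and holds cyclin E kinase inactive, was 17.0 TPM in hESCs, 28.1 in DE and 26.6 in PGT, then 20.4 in PP, 51.1 in PH and 29.0 in SC-β organoids. Its highest value and the lowest values of CCNE1 and CDC25A were thus in the same stage. Its lowest value was in hESCs, the highest stage for 24 of the 46 members. PH was the lowest stage for 27 of the 46 members, and a link of CDKN1B to any of them was not tested. CDKN1C, which encodes p57 and is not one of the 46, was 5.89, 16.3, 29.8, 16.6, 49.0 and 22.7 TPM, also highest in PH.

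CDKN1A is a known target of the p53 pathway, and 10 other targets were read beside it. In DE against hESCs 3 of the 10 were 2-fold lower and 1 higher, beside 4.43% and 22.5% of all names. In PP against PGT 4 were higher and none lower, beside 4.77% and 5.65%. In PH against PP 6 were 2-fold lower and none higher, beside 9.97% and 8.94%. RRM2B, the p53-induced reductase subunit, was 44.3 TPM in hESCs, 11.2 in DE and 10.2 in PGT, then 22.2 in PP, 5.49 in PH and 14.2 in SC-β organoids. FAS, a death receptor, was 4.08, 0.294, 0.865, 13.2, 1.44 and 5.43 TPM. MDM2, the ligase that degrades p53, was 81.0, 47.0, 48.8, 54.5, 52.4 and 43.0 TPM. RRM2B and FAS were thus low in DE and PGT as CDKN1A was, whereas MDM2 stayed within 43.0 to 81.0 TPM and TP53INP1 was higher in PGT, at 52.2 TPM against 9.88 TPM in hESCs.

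Further genes of the same machinery were read as 2 lists of 30. The lower value in PGT than in both DE and PP was found in 29 of 30 other S-phase genes, all but SLBP, and in 29 of 30 other mitotic genes, all but NEK2. The lower value in PH than in both PP and SC-β organoids was found in all 30 of each. From PGT to PP the median log2 ratio was 0.49 for the other S-phase genes and 1.14 for the other mitotic genes, with 1 and 20 of 30 at 2-fold or more higher, beside 4.77% of all names. In PH against PP the medians of these lists were both -1.12, so the wider S-phase difference among the 46 members was not found there. Against hESCs they were -1.39 and -1.08 in PH. In PH against PP, CLSPN, a checkpoint mediator at forks, and GINS4 had the lowest ratios of the S-phase list (-2.30 and -2.27), and KIF14 and DLGAP5, a spindle motor and a spindle protein, those of the mitotic list (-1.92 and -1.89). The highest were DBF4 and POLE2 (-0.49 and -0.40) and ESPL1 and PRC1 (-0.50 and -0.47). In SC-β organoids against hESCs the ratios ran from -1.24 for TK1, thymidine kinase, and -1.11 for TIPIN to 0.46 for GINS3 and 0.67 for UHRF1, and among mitotic genes from -1.72 for HMMR and -1.47 for CKS1B to 0.74 for KIF15 and 1.00 for ESPL1, the gene of separase.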

How the data were processed

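RNA-seq in H9 hESCs and their DE, PGT, PP, PH and SC-β derivatives was analysed, 12 of the 148 samples of the series; the other assays were not used. Per the labels, ribosomal RNA was removed and stranded TruSeq libraries were made. Whether counting used strand, and the annotation, are not given in the sources used here. The authors aligned reads to hg38 with HISAT2 (2.2.0) and computed TPM with StringTie (2.1.6). The deposited TPM table holds 1 mean per stage, with 50451 entries under 49085 names; entries of the 231 repeated names were summed. Depth per sample is not part of a TPM table, so no interval can be given.

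Log2((TPM + 1) / (TPM + 1)) was computed per comparison, and 2-fold calls, class medians and shares of all names were counted. No test was run, because 1 mean per stage has no replicates. Gene positions came from GENCODE on GRCh38 and promoters from RefSeq. Values were printed for the members named by function, the 3 with the largest and the 3 with the smallest range in each class, and the highest member of each stage; further members are given as ranges. From the other lists, the 2 lowest and 2 highest ratios were named for 2 comparisons; other values were named after they were seen. The members and lists were chosen with earlier results of these data known. Calculations were tested on simulated data. Alternatives were a pseudocount of 0.1 TPM, a 4-fold threshold, members at 10 TPM or more, median-ratio rescaling over the 13938 names at 1 TPM or more in every stage, totals without 43 structural and mitochondrial RNAs, the highest entry per name, and MYBL2 as a mitotic gene. Python 3.11.15, numpy 2.4.6, pandas 2.3.3 and matplotlib 3.10.9 were used.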

Additional observations from a re-analysis of the deposited data

How the results depend on the processing

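No paired analysis was possible because the deposited columns are means over the replicates, and for the same reason no replicate could be left out. Of 437 values recomputed under the alternatives, 407 moved by 1.5 times or less. Of these, 90 used the highest entry per name and could not move, since each member has a single entry. The log2 factors of median-ratio rescaling ran only from -0.27 in hESCs to 0.25 in SC-β organoids. Under that rescaling no ratio or class median could therefore move past 1.5 times, and only counts could. Median-ratio rescaling and removal of the structural RNAs each multiply a stage by 1 factor, too small to turn the sign of a ratio past 2-fold. No such ratio changed sign, by construction. Ratios nearer 0 did change sign with the scaling: 13 of 46 members in SC-β organoids against PP, 9 in DE, 8 in SC-β organoids and 6 in PP against hESCs, 3 in PH against PP and 1 in each of PGT against hESCs and PGT against DE after median-ratio rescaling, with none in PP against PGT or PH against hESCs. CCNE1 in DE against hESCs, for one, was -0.33 after rescaling, and CDKN1A in PP against hESCs -0.20. CCNE2 in PP against hESCs was 0.99 after rescaling, under 2-fold. With a pseudocount of 0.1 TPM, 1 member was 2-fold higher in PGT than in hESCs and 1 in SC-β organoids than in PP, and CDKN1A in DE against hESCs was -5.32. After median-ratio rescaling the members 2-fold lower were 18 in DE against hESCs, 11 in PP against hESCs, 19 in SC-β organoids against hESCs and 7 in PGT against DE, with 0 higher in PP against hESCs. Without structural and mitochondrial RNAs, 7 were lower in DE against hESCs. At 4-fold, 1 member was lower in DE, 2 in PGT, 0 in PP, 10 in PH and 0 in SC-β organoids against hESCs, 0 in PGT against DE, 4 in PH against PP and 0 in SC-β organoids against PP; 0 were higher in DE, PP, PH and SC-β organoids against hESCs, 0 in PGT against DE, 0 in PH against PP and 1 in PP against PGT. Among members that reached 10 TPM in either stage compared, 0 were higher in DE, PP and SC-β organoids against hESCs, 1 in PH against hESCs and 0 in PGT against DE. A stricter fold or a higher minimum lowers such counts by construction; the cause of the other moves was not tested. Of all names at 10 TPM or more, 22.0% were 2-fold lower in PH than in hESCs. The pattern counts on the main scale, under rescaling and without structural RNAs were chosen after seeing the data, as were the ratios of CCNE1, CCNE2 and MKI67. Depth limits members listed at a few TPM, such as CCNE2 and CCNE1 in PH, in a way the table does not show.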

Other observations

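Genes that govern entry into the cycle from G1, and genes listed here as its brakes, had their own orders of stages. CCND1, a D-type cyclin, was 137 TPM in hESCs, 67.1 in DE and 46.9 in PGT, then 70.5 in PP, 139 in PH and 91.2 in SC-β organoids, so that PH was at the hESC level where most of the 46 members were lowest. CCND2 was 78.3, 146, 41.0, 115, 94.3 and 201 TPM, and CDK6, a partner of the D cyclins, was 16.5, 19.0, 26.7, 56.7, 13.6 and 51.8 TPM. CDK2, the partner of cyclin E, was 16.3 TPM in hESCs and 37.0 to 62.3 TPM in every other stage. Of the 15 genes of G1 entry and E2F, 0 were 2-fold higher and 4 lower in PH against PP, beside 8.94% and 9.97% of all names.

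Of the 15 genes listed as brakes of the cycle, 8 were 2-fold higher and 1 lower in PH than in hESCs, beside 21% and 14.5% of all names. In SC-β organoids against hESCs 7 were higher and none lower, beside 38.6% and 6.44%. The list includes LIN9, LIN37, LIN52 and LIN54, subunits of the MuvB complex, which also takes part in switching on mitotic genes. LIN37 was among those 2-fold higher in PH than in hESCs (log2 1.79). GAS1, a growth arrest gene, was 0.813 TPM in hESCs, 3.95 in DE and 16.8 in PGT, then 12.9 in PP, 41.0 in PH and 59.3 in SC-β organoids. In PH against PP, CDKN2D, an inhibitor of the D cyclin kinases, was 11.8 against 1.91 TPM and CDKN2C 2.73 against 0.103 TPM, whereas BTG2, an antiproliferative p53 target, was 13.2 against 29.8 TPM. BTG2 was highest in PGT, at 51.8 TPM. PA2G4, which binds the retinoblastoma protein, was lowest in PH, at 40.0 TPM against 121 TPM in hESCs.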
